A study of Mus musculus with 18 samples.

Results

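IP20D-3 is a mouse induced pluripotent stem (iPS) line, that is, somatic cells brought back to an embryonic state, and it was set here against ESC2, an embryonic stem (ES) line that carries the same strain label. The comparison took the 3 arrays titled IP20D-3 and the 3 titled ESC2, 6 of the 18 arrays analysed from 6 cell lines. Both lines were of the strain B6 x D2 F1 and were grown on mouse embryonic fibroblast feeders stopped with mitomycin C, in medium with leukaemia inhibitory factor (LIF). Fetal bovine serum or KOSR, a serum replacement, was part of the medium, with no label telling the lines apart by it. Each group is 1 line, so a difference between the lines cannot be told apart from a difference between iPS and ES cells. The design text calls the 3 arrays of a line biological replicates without saying what separates them, so p-values measure the spread between those arrays. The other lines used for comparison were the iPS lines IP36D-3 and IP14D-1, also labelled B6 x D2 F1, the iPS line IP14D-101, labelled B6 x 129S2 F1, and the ES line R1, labelled 129X1/SvJ x 129S1 F1. Strain background therefore differs along with the line where IP20D-3 is set against IP14D-101 or R1. The fibroblasts from which the iPS line was derived were not analysed here.

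Mouse pluripotent cells can be held in states that differ in gene expression while all keep Pou5f1 and Sox2. The naive state resembles the preimplantation epiblast and rests on LIF and on factors such as Klf2, Klf4, Esrrb and Tbx3. Formative and primed states resemble the epiblast around and after implantation, in which FGF and ERK signalling, Otx2, Pou3f1, Fgf5 and the de novo DNA methyltransferases are active. Independently of these states, cells that lack amino acids or load their endoplasmic reticulum phosphorylate the initiation factor eIF2 and make more of the transcription factor ATF4, whose targets supply amino acids and charged tRNAs. This programme is called the integrated stress response.

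All values are log2 of the intensities that the authors made with RMA, a method that corrects background, aligns the distributions of the arrays and sums probes into probe sets. A level of a gene is set only against the same probe set on other arrays. Differences are IP20D-3 minus ESC2 in log2 ± the standard error from limma, so a difference of 1 is a change in intensity of 2-fold. The 18 arrays had medians between 29.2 and 30.5 on the linear scale. A gene was called at a limma adjusted p under 0.05 and a difference of at least 1 in either direction, and the largest adjusted p among the genes called against ESC2 was 0.0162. Levels under about 6, where the array median of 4.87 to 4.93 lies close by, were not shown to stand above background.

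The defining pluripotency genes were high in both lines. Pou5f1, the central factor of pluripotency, had 12.52, 12.54 and 12.44 in IP20D-3 and 12.21, 12.23 and 11.92 in ESC2. Sox2, its partner on DNA, had 12.20, 12.20 and 12.12 in the IP20D-3 arrays, against 11.92, 11.998 and 12.07 in ESC2. Sall4, Dppa4 and Lin28a, further pluripotency genes, were above 10 on every array of both lines. Some markers of other cells were low, at or under 5.3 on every array of both lines. They were Thy1, Pdgfrb and Lum of fibroblasts and Gata4, Gata6 and Sox17 of primitive endoderm. Elf5 and Gata3 of trophectoderm and Mesp1 and Mixl1 of mesoderm were low as well. Other members of such lists, given below, were above 6. Col1a2 and Thbs1 of fibroblasts were so in ESC2. Fn1 of fibroblasts, Krt8 of trophectoderm and Apoe and Lama1 of endoderm were so in both lines. The 30 fibroblast and feeder markers averaged 4.91, 4.81 and 4.80 on the IP20D-3 arrays and 5.55, 5.47 and 5.55 on the ESC2 arrays, and 19 of the 30 were under 6 in both lines. Beta-actin, whose control probe sets sit at both ends of the transcript, gave a 3′ over 5′ signal of 1.28 ± 0.023 in IP20D-3 and 1.53 ± 0.043 in ESC2 (SD, n = 3 each), and the remaining lines averaged 1.12 to 1.27. The 3′ to 5′ ratio of Gapdh was 0.909 ± 0.023 in IP20D-3 and 0.891 ± 0.018 in ESC2. The signal for 18S ribosomal RNA was 82.2, 144.2 and 326.5 on the IP20D-3 arrays and 168, 186.3 and 176.5 on the ESC2 arrays on the linear scale, with 86.4 to 149.9 in IP36D-3 and 18.5 to 53.4 in the other lines. IP20D-3 replicate 3 was thus the highest array, and without it 1536 genes were called against ESC2, beside 1564 with it. The beta-actin ratio moves with the contrast of the lines, and its part and that of the 18S signal in the results against ESC2 was not tested. IP36D-3 and IP14D-1, the iPS lines of the same strain label, had ratios of 1.26 and 1.27, close to that of IP20D-3.

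Of 18193 genes tested, limma called 1564, of which 949 were higher in IP20D-3 (5.22%) and 615 lower (3.38%). All 1564 genes with a difference of at least 1 passed the adjusted p, so the size of the difference set the calls. In 10151 of the 18193 genes the IP20D-3 arrays did not overlap the ESC2 arrays. Arrays that do not overlap are therefore the usual case between these lines, also where stated for single genes below. The median difference over all genes was 0.0087, and the within-line SD was 0.161 in IP20D-3 and 0.118 in ESC2. A difference of 2 or more was reached by 127 genes that were higher in IP20D-3 and 99 that were lower. The same threshold called 772 genes between IP20D-3 and IP36D-3 (429 higher, 2.36%, and 343 lower, 1.89%) and 902 between IP20D-3 and IP14D-1 (510 higher, 2.8%, and 392 lower, 2.15%). These contrasts share the IP20D-3 arrays, so their values are given side by side and not counted as independent. The percentages are shares of all genes, to be read beside each list count that follows. A count near its share tells nothing particular about a list.

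**Figure D1:**
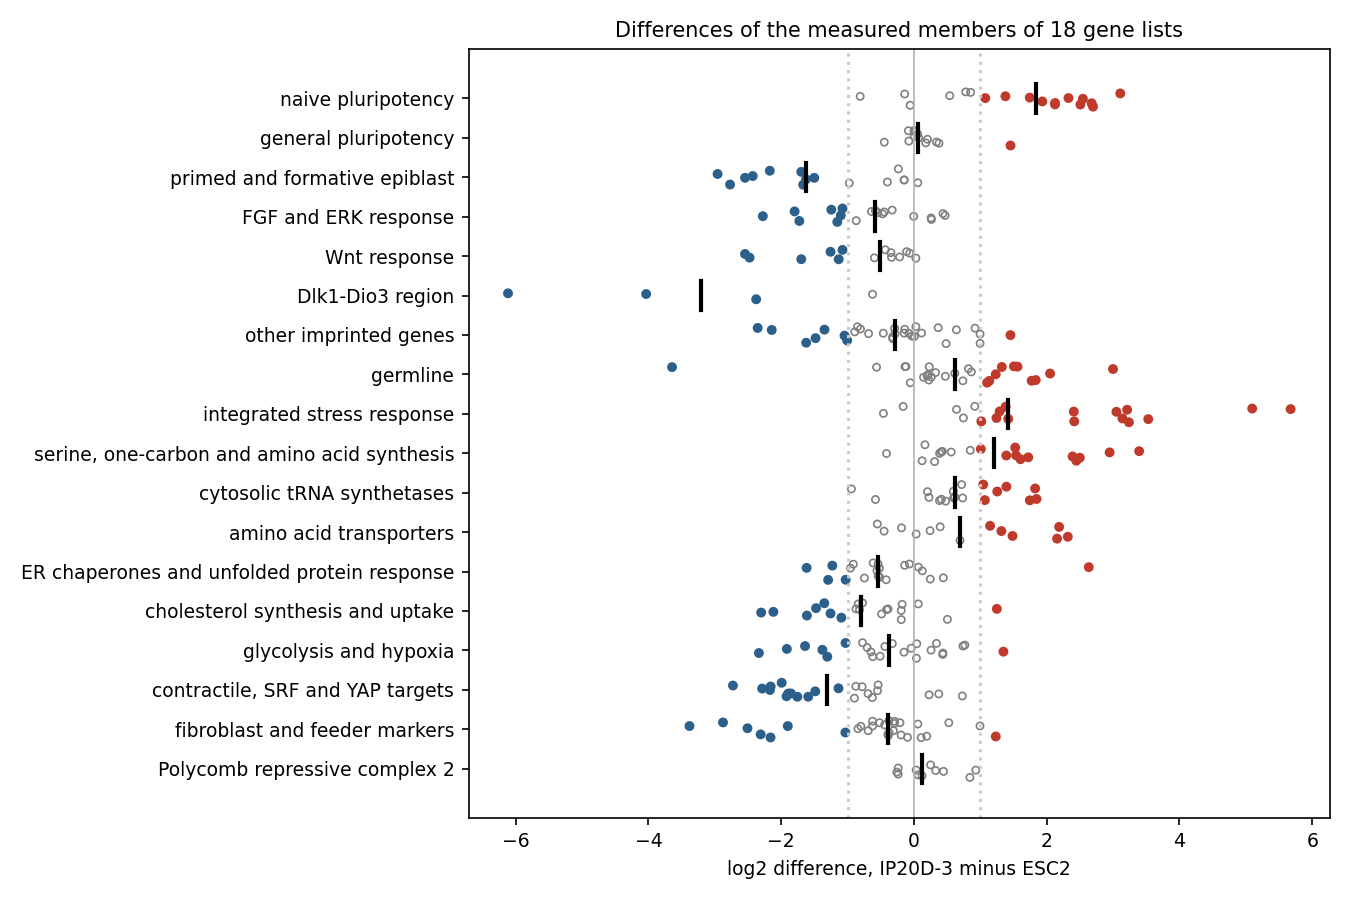
Log2 differences of IP20D-3 minus ESC2 for the measured members of 18 gene lists, 1 point per gene. Filled points were called higher (red) or lower (blue), open points were not called, black bars are list medians and dotted lines mark a difference of 1 in each direction. The medians run from -3.21 in the Dlk1-Dio3 region to 1.84 in the naive pluripotency list.

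Most naive pluripotency genes were higher in IP20D-3. Of 18 measured, 12 were called higher and 0 lower, against 5.22% and 3.38% of all genes, and the list's median difference was 1.84. Tbx3, a T-box factor that sustains self-renewal, had 10.15, 10.09 and 10.09 in the IP20D-3 arrays and 7.04, 6.89 and 7.08 in the ESC2 arrays, a difference of 3.11 ± 0.11. Tcl1, a coactivator of the kinase Akt, had 9.78, 9.79 and 9.52 in IP20D-3 and 7.07, 6.97 and 6.95 in ESC2. Pecam1, an adhesion molecule on the surface of naive cells, had 9.22, 9.24 and 9.19 in the IP20D-3 arrays, against 6.53, 6.54 and 6.54 in ESC2. In each of these genes the 3 IP20D-3 arrays lay more than 2 units above the highest ESC2 array. Nr0b1, an orphan nuclear receptor bound to Pou5f1, had 11.32, 11.27 and 11.30 in the IP20D-3 arrays and 8.79, 8.85 and 8.74 in the ESC2 arrays, and Prdm14, which represses FGF receptor and methyltransferase genes, had 8.04, 8.32 and 8.37 in IP20D-3 and 5.96, 5.91 and 5.86 in ESC2. Esrrb, a nuclear receptor of the naive network, had 10.35, 10.23 and 10.26 in the IP20D-3 arrays, against 8.23, 8.07 and 8.16 in ESC2. The arrays of the lines did not overlap in any of them, nor did they in 10151 of all 18193 genes.

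The Krüppel-like factors, which partly replace one another in holding the naive state, moved together. Klf2 differed by 2.12 ± 0.09, Klf5 by 1.74 ± 0.08 and Klf4 by 1.38 ± 0.07. Jam2, a junctional adhesion molecule, differed by 2.54 ± 0.09, and Fgf4, the growth factor that starts the exit from the naive state, by 1.08 ± 0.09. Tfcp2l1, a target of LIF signalling, differed by 1.93 ± 0.09, and lost its call at 0.74 when the mean of its 3 probe sets was used. Over all alternatives the count of called naive rises was 9 to 12, and it stayed at 12 whichever single array was left out. The 6 naive genes without a call were Zfp57 (0.85 ± 0.09), Zfp42 (0.78 ± 0.07), Nanog (0.54 ± 0.08), Fbxo15 (-0.06 ± 0.07), Nr5a2 (-0.14 ± 0.10) and Dppa3 (-0.81 ± 0.07). Nanog, the homeobox factor of the naive epiblast, had 11.85, 11.87 and 11.70 in the IP20D-3 arrays and 11.29, 11.19 and 11.32 in the ESC2 arrays, with all IP20D-3 arrays above all ESC2 arrays. Dppa3, which shields maternal methylation, had its 3 IP20D-3 arrays below the ESC2 arrays, at 8.35, 8.40 and 8.47 in IP20D-3 and 9.16, 9.29 and 9.20 in ESC2.

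Against the other iPS lines, 10 naive genes were called higher in IP20D-3 than in IP36D-3 (2.36% of all genes) and 1 lower, and 6 were called higher than in IP14D-1 (2.8%) and 1 lower. The median differences of the list were 1.11 and 0.51. Tbx3 had a mean of 10.11 in IP20D-3, 7.65 in IP36D-3 and 8.97 in IP14D-1, and was called in both contrasts. Klf2 was called against IP36D-3, with a difference of 1.58 ± 0.09, and not against IP14D-1, at 0.21 ± 0.09. Pecam1, Tcl1, Jam2, Prdm14 and Tfcp2l1 were called higher in IP20D-3 than in both lines. IP20D-3 had the highest mean level of the list among the 6 lines, 10.06 in IP20D-3, against 9.03 in IP36D-3, 9.46 in IP14D-1, 9.68 in IP14D-101, 9.27 in R1 and 8.54 in ESC2.

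**Figure D2:**
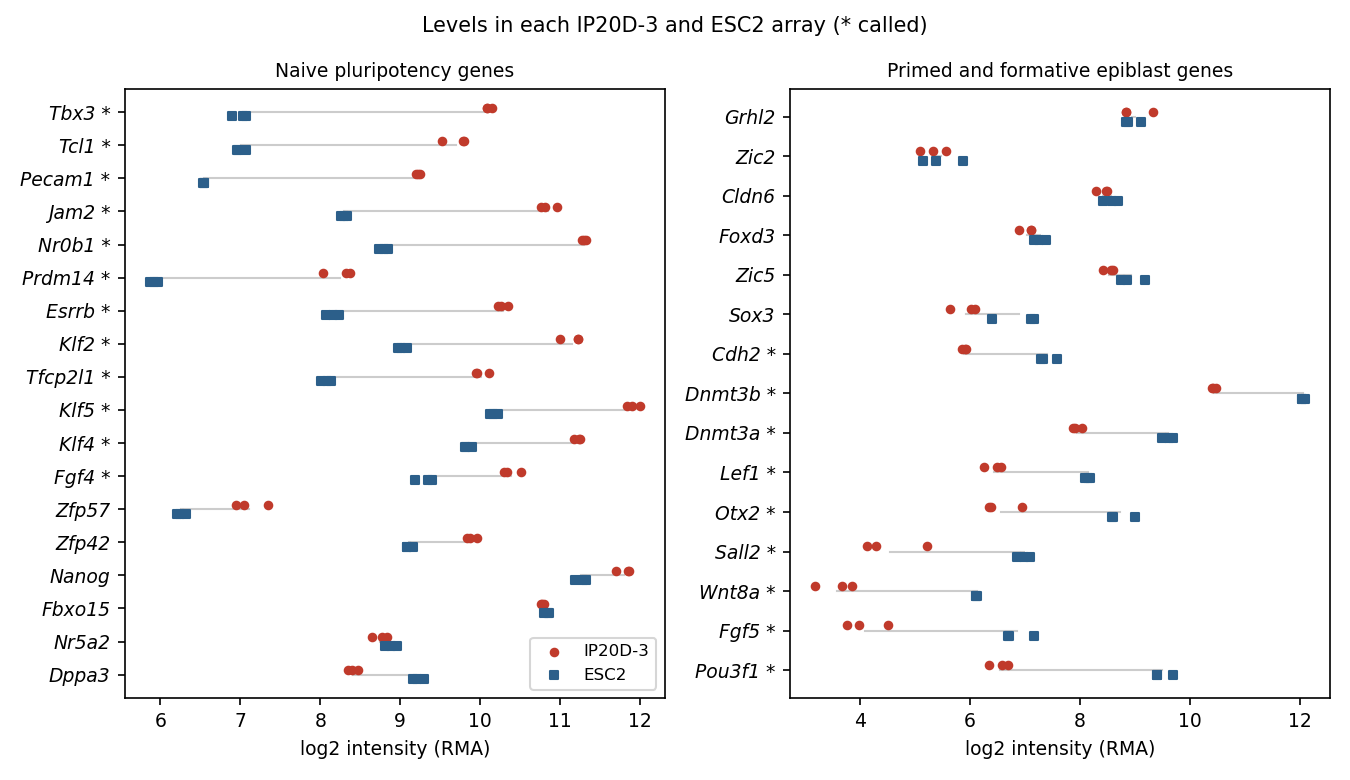
Log2 intensity in each of the 3 IP20D-3 arrays (red circles) and the 3 ESC2 arrays (blue squares) for the naive list (left, 18 genes) and the primed and formative list (right, 15 genes), ordered by difference, with asterisks on called genes. In the left panel 12 genes are called with the IP20D-3 arrays to the right, and in the right panel 9 are called with them to the left.

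General pluripotency genes, shared by naive and primed cells, differed little on the probe sets used. Of 13 measured, 1 was called higher and 0 lower, with a median difference of 0.06. Pou5f1 differed by 0.38 ± 0.08 and Sox2 by 0.18 ± 0.08. The 1 called was Mybl2, a cell cycle transcription factor, which had 11.16, 11.10 and 11.12 in the IP20D-3 arrays, against 9.74, 9.73 and 9.58 in ESC2. Tdgf1, the Nodal co-receptor, was lowest in the list at -0.45 ± 0.07, short of the threshold. The 9 genes called in neither direction with values between these were Gdf3, Dppa4, Dppa5a, Dppa2, Trim28, Sall4, Rif1, Utf1 and Lin28a, at -0.08 to 0.34. Lin28a had 1 other probe set, with a level of at least 6, that did not share its direction. Its difference was -0.93, without a call, under 1 alternative.

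Most primed and formative epiblast genes were lower in IP20D-3. Of 15 measured, 9 were called lower and 0 higher, with a median difference of -1.63. Bulk arrays cannot tell fewer cells in such a state from less RNA per cell. Pou3f1, a POU factor of the formative epiblast, had 6.35, 6.69 and 6.59 in the IP20D-3 arrays and 9.41, 9.69 and 9.41 in the ESC2 arrays, a difference of -2.96 ± 0.14. Fgf5, the growth factor that marks the primed epiblast, had 3.77, 3.99 and 4.52 in IP20D-3 and 6.70, 7.18 and 6.72 in ESC2. Otx2, which directs the exit from the naive state, had 6.38, 6.35 and 6.96 in the IP20D-3 arrays, against 8.60, 8.998 and 8.61 in ESC2. The IP20D-3 arrays lay below the ESC2 arrays throughout, and for Fgf5 they lay under 6. Dnmt3b, a de novo DNA methyltransferase, had 10.42, 10.47 and 10.41 in the IP20D-3 arrays and 12.04, 12.10 and 12.04 in the ESC2 arrays, and Dnmt3a, its partner enzyme, had 7.91, 7.88 and 8.04 in IP20D-3 and 9.63, 9.70 and 9.50 in ESC2.

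The other called members were Wnt8a (-2.54 ± 0.16), a Wnt ligand, Sall2 (-2.43 ± 0.20), a zinc finger factor, Lef1 (-1.70 ± 0.13), which carries Wnt signals to DNA, and Cdh2 (-1.50 ± 0.16), N-cadherin. Sox3 (-0.97 ± 0.17), Zic5 (-0.40 ± 0.12), Foxd3 (-0.24 ± 0.10), Cldn6 (-0.15 ± 0.10), Zic2 (-0.15 ± 0.22) and Grhl2 (0.06 ± 0.11) were not called, though Sox3 passed without IP20D-3 replicate 2 (-1.06) or 3 (-1.03) or ESC2 replicate 3 (-1.22). In the contrasts with the other iPS lines, 8 members were called lower in IP20D-3 than in IP36D-3 (1.89% of all genes) and 9 lower than in IP14D-1 (2.15%), with 0 higher in each. Pou3f1 averaged 6.54 in IP20D-3, 8.22 in IP36D-3 and 8.53 in IP14D-1. Otx2 averaged 6.56 in IP20D-3, 8.75 in IP36D-3 and 7.90 in IP14D-1, and was called in both.

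Several targets of FGF and ERK signalling, which is active in the formative and primed states, were lower as well. Of 19 genes of the FGF and ERK response, 7 were called lower and 0 higher, with a median of -0.58. Myc, the growth-promoting factor induced by ERK and LIF, had 6.89, 7.11 and 6.995 in the IP20D-3 arrays, against 9.28, 9.30 and 9.25 in ESC2. Dusp6, the phosphatase that switches off ERK and whose transcript follows ERK activity, had 8.99, 8.80 and 8.72 in the IP20D-3 arrays and 9.97 to 10.01 in the ESC2 arrays. Both were lower on every IP20D-3 array. Phlda1 (-1.80 ± 0.11), Ier3 (-1.73 ± 0.12), the receptor Fgfr2 (-1.24 ± 0.08), the inhibitor Spred1 (-1.10 ± 0.09) and the cyclin Ccnd1 (-1.08 ± 0.08) were the other members called. With the mean of all probe sets of a gene, Fgfr2 (-0.78), Spred1 (-0.48) and Ccnd1 (-0.85) fell short of the threshold and the count was 4. The feedback inhibitors Spry4 (0.47 ± 0.13) and Dusp4 (0.44 ± 0.10) and the early gene Egr1 (0.26 ± 0.17) had differences above 0 and were not called.

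Among 14 Wnt response genes, 6 were called lower and 0 higher, against 3.38% and 5.22% of all genes. Sp5, a direct target of beta-catenin, had 5.15, 5.50 and 5.38 in the IP20D-3 arrays and 7.70, 7.95 and 7.82 in the ESC2 arrays. Axin2, a negative-feedback target, had 5.62, 5.15 and 6.14 in IP20D-3 and 6.92, 6.86 and 6.90 in ESC2, with a difference of -0.75 and no call for the mean of its probe sets. Wnt8a, Lef1 and Ccnd1, given above, and Wnt3 (-1.13 ± 0.16) were the others, and Wnt3 had no level above 4.3 and no call once 16 was added to each intensity. Of 16 genes of the Nodal and BMP response, 3 were called lower: Bmp4 (-1.45 ± 0.14), the BMP target Id1 (-1.05 ± 0.16) and the SMAD repressor Skil (-1.02 ± 0.11). Nodal itself had 9.86, 9.90 and 10.19 in the IP20D-3 arrays, against 10.004, 10.10 and 9.86 in ESC2, with the arrays of the lines intermixed. Without IP20D-3 replicate 1 the count was 1, as Id1 (-0.95) and Skil (-0.94) dropped below the threshold, and Id1 also did so without IP20D-3 replicate 2 (-0.94) or ESC2 replicate 3 (-0.99).

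The LIF and STAT3 list, 14 genes, split. Klf4 and Tfcp2l1 were called higher, and Gbx2, a homeobox factor, and Bcl3, an NF-kappa-B partner, were called lower. Gbx2 had 5.72, 5.68 and 5.50 in the IP20D-3 arrays and 8.37, 8.17 and 8.37 in the ESC2 arrays, a clear gap, and Bcl3 differed by -1.06 ± 0.09, or -0.93 and no call with 16 added to each intensity. Stat3, the factor that LIF activates, had 8.84, 8.83 and 9.03 in IP20D-3 and 7.94, 8.02 and 7.89 in ESC2, a difference of 0.95 ± 0.08 that stayed under the threshold. Its feedback inhibitor Socs3 differed by -0.96 ± 0.14 and the LIF receptor Lifr by 0.49 ± 0.10, neither called, although Socs3 passed without IP20D-3 replicate 1 (-1.06) or 2 (-1.02). Gbx2 was also called lower in IP20D-3 than in IP36D-3 (difference -2.31 ± 0.15) and than in IP14D-1 (difference -2.29 ± 0.15).

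Of 13 genes of DNA methylation and imprint protection, Dnmt3a and Dnmt3b were called lower and Tet2 higher. Tet2, which oxidises methylcytosine, had 9.79, 9.68 and 9.74 in the IP20D-3 arrays, against 8.21, 8.04 and 8.12 in ESC2. The maintenance pair of Dnmt1 (0.34 ± 0.07) and Uhrf1 (0.66 ± 0.07), the cofactor Dnmt3l (0.03 ± 0.08) and Tet1 (0.06 ± 0.15) were not called. None of the 11 measured genes of Polycomb repressive complex 2, the histone H3 lysine 27 methyltransferase, was called. Their differences ran from -0.26 for the catalytic subunit Ezh2 to 0.93 for the accessory subunit Aebp2, and 8 of the 11 lay above 0.

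The largest fall among all genes was in Meg3, a maternally expressed long noncoding RNA of the imprinted Dlk1-Dio3 region on chromosome 12. In mouse iPS cells silencing of this region has been linked to reduced developmental potential. Meg3 had 5.33, 5.11 and 5.24 in the IP20D-3 arrays and 11.30, 11.33 and 11.39 in the ESC2 arrays (difference -6.12 ± 0.16, limma adjusted p = 3.29e-14). Its 10 other probe sets were lower too. Rian, the noncoding RNA beside it, had 3.52, 3.68 and 3.45 in IP20D-3 and 7.53, 7.70 and 7.52 in ESC2, and Mirg, the third of this series of transcripts, had 4.99, 5.18 and 5.46 in the IP20D-3 arrays, against 7.61, 7.63 and 7.52 in ESC2. The IP20D-3 arrays of all 3 RNAs were under 6, so their levels there were not shown to be above background. Dlk1, the paternally expressed protein gene of the region, had 5.02, 5.47 and 5.15 in the IP20D-3 arrays and 5.79, 5.80 and 5.93 in the ESC2 arrays, a difference of -0.62 ± 0.13 that was not called. Meg3 averaged 5.23 in IP20D-3, 5.90 in IP36D-3 and 10.89 in IP14D-1. The difference from IP36D-3 was -0.68 ± 0.16 and was not called, and that from IP14D-1 was -5.67 ± 0.16 and was.

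**Figure D3:**
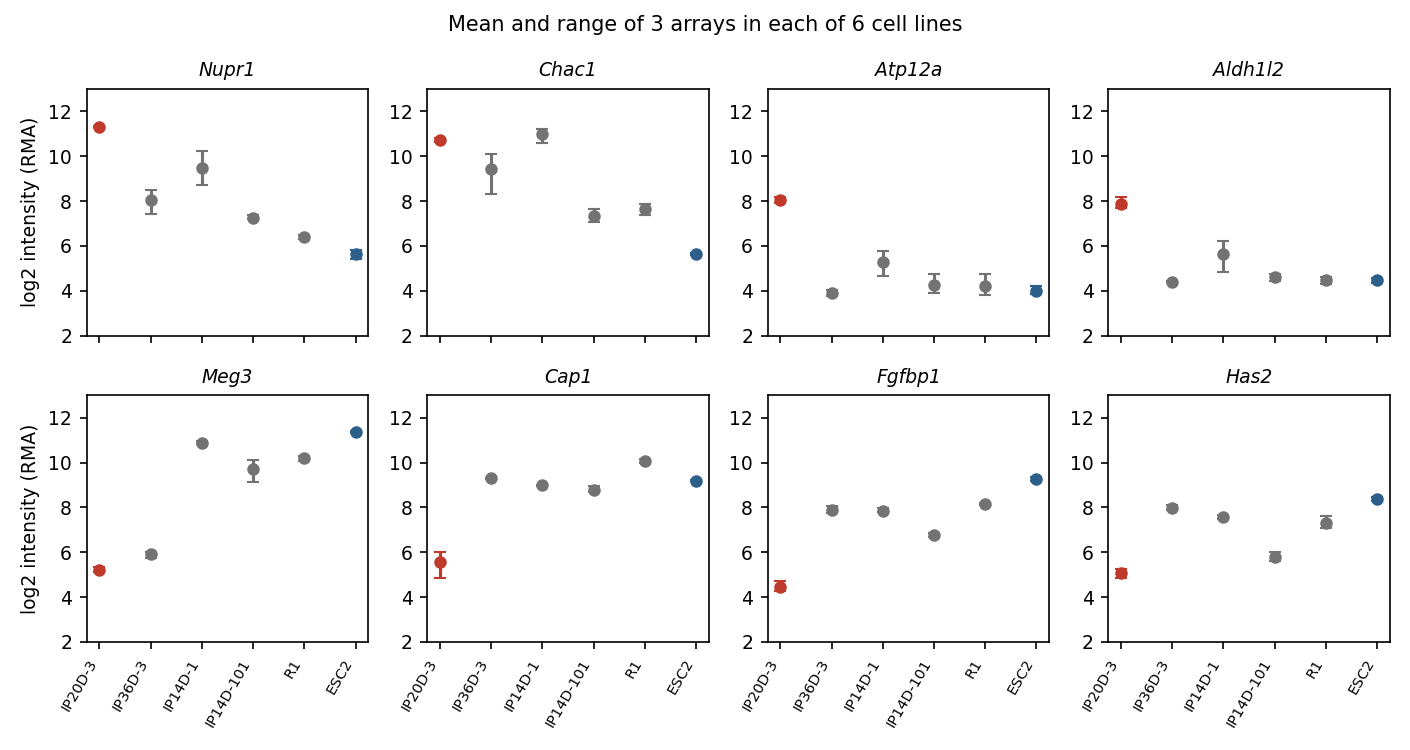
Mean log2 intensity of 8 genes in the 6 cell lines, with bars from the lowest to the highest of 3 arrays per line, IP20D-3 in red, ESC2 in blue and the other lines in grey. Nupr1, Atp12a and Aldh1l2 are highest in IP20D-3, Cap1, Fgfbp1 and Has2 are lowest there, Chac1 is as high in IP14D-1, and Meg3 is low in IP20D-3 and IP36D-3.

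Of 30 other imprinted genes, 7 were called lower and 1 higher. Peg3, a paternally expressed zinc finger gene, had 9.91, 9.97 and 10.15 in IP20D-3 and 11.74, 11.54 and 11.62 in ESC2, and Mest, a paternally expressed hydrolase gene, had 9.18, 9.16 and 9.16 in the IP20D-3 arrays, against 10.74, 10.50 and 10.71 in ESC2. Nnat, a paternally expressed membrane protein gene, had 5.81, 5.79 and 6.24 in the IP20D-3 arrays and 7.99, 8.13 and 8.15 in the ESC2 arrays. Calcr (-2.36 ± 0.18), Magel2 (-1.35 ± 0.15), Cdkn1c (-1.05 ± 0.10) and Ndn (-1.01 ± 0.10) were the other falls, and Grb10, an adaptor that limits insulin signalling, was the rise, with 11.71, 11.66 and 11.76 in IP20D-3 and 10.36, 10.08 and 10.33 in ESC2. Both parental classes were among the falls, since Cdkn1c and Calcr are expressed from the maternal allele in some tissues. The calls of Cdkn1c and Ndn, at the edge of the threshold, were lost without IP20D-3 replicate 1 (-0.99 and -0.98), and with 16 added (-0.98 and -0.96), and Ndn was also lost without IP20D-3 replicate 3 or ESC2 replicate 2 (-0.997) or ESC2 replicate 3 (-0.98). For the mean of the probe sets, Peg3 stood at -0.96 and Ndn at -0.60. Igf2r (0.996 ± 0.12), Copg2 (0.996 ± 0.11) and Mkrn3 (0.92 ± 0.09) lay just under the threshold. The count of rises was 3 without IP20D-3 replicate 1 or ESC2 replicate 2, where Igf2r (1.07 and 1.06) and Copg2 (1.03 and 1.08) passed, and 2 without IP20D-3 replicate 2 (Igf2r, 1.08) or 3 (Copg2, 1.03).

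Of 27 germline genes, many of them for the pairing of meiotic chromosomes, 10 were called higher in IP20D-3 and 1 lower. Of all genes, 5.22% were called higher and 3.38% lower. The list had a median of 0.62, and 11 of its genes were under 6 in both lines. Its count of rises was 7 to 11 over the alternatives, and 9 to 11 on leaving out 1 array. Summed on the linear scale the list reached 4395, 4689 and 4554 in IP20D-3 and 4477, 4472 and 4440 in ESC2. Rhox5, the 1 fall, was bright in ESC2 and made up a large part of the sum there. The mean log2 level of the list was 6.48 in IP20D-3 and 5.85 in ESC2. Tex14, a protein of the bridges between germ cells, had 9.13, 9.24 and 9.16 in the IP20D-3 arrays, against 6.25, 6.14 and 6.13 in ESC2. Piwil2, which works with small RNAs that silence transposons, had 8.04, 8.18 and 8.35 in the IP20D-3 arrays and 6.12, 6.28 and 6.03 in the ESC2 arrays. Stag3, a cohesin subunit of meiosis, had 7.44, 7.39 and 7.04 in IP20D-3 and 5.64, 5.32 and 5.41 in ESC2. All 3 genes were under 6.3 on the ESC2 arrays and above 7 on the IP20D-3 arrays. The synaptonemal complex genes Syce1 (1.77 ± 0.09), Sycp3 (1.56 ± 0.18), Sycp1 (1.23 ± 0.12) and Sycp2 (1.10 ± 0.13), the transcription factor Sohlh2 (1.51 ± 0.08), the germ cell specifier Prdm1 (1.32 ± 0.12) and Stk31 (1.14 ± 0.20) were the remaining rises. The germ cell helicase Ddx4 (-0.56 ± 0.14) and the RNA-binding protein Dazl (0.62 ± 0.13) were not called.

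The 1 fall was Rhox5, an X-linked homeobox gene of the reproductive tract, with 7.63, 7.52 and 7.18 in the IP20D-3 arrays, against 11.10, 11.08 and 11.08 in ESC2. Its neighbours Rhox6 and Rhox9, in the trophectoderm list, differed by -1.24 ± 0.11 and -1.26 ± 0.08 and were called. Rhox5 was also called lower in IP20D-3 than in IP36D-3 (difference -1.62 ± 0.10) and than in IP14D-1 (difference -2.16 ± 0.10). Of 4 measured genes of the two-cell stage, the deubiquitinase gene Usp17la (-2.35 ± 0.14) and Tcstv1 (-1.18 ± 0.18) were called lower, and Usp17la exceeded 6 in ESC2, while Tcstv1 was low and at -0.48 with 16 added. Xist, the RNA that coats the inactive X chromosome, had 7.23, 7.64 and 7.71 in the IP20D-3 arrays and 6.57, 6.64 and 6.40 in the ESC2 arrays, a difference of 0.99 ± 0.18 just under the threshold. It passed without ESC2 replicate 1 (1.01), ESC2 replicate 2 (1.04) or IP20D-3 replicate 1 (1.14). Its lowest difference over the alternatives was 0.35. Of the 2 other probe sets of Xist, both under 6, 1 shared the direction.

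The largest fitted rises, of Nupr1 and Chac1, belonged to the integrated stress response. Of 19 measured, 14 were called higher and 0 lower, with a median of 1.42. Nupr1, a small stress-induced chromatin protein, had 11.31, 11.30 and 11.36 in IP20D-3 and 5.71, 5.42 and 5.83 in ESC2 (difference 5.68 ± 0.28, limma adjusted p = 2.04e-11). Chac1, an enzyme that degrades glutathione, had 10.74, 10.64 and 10.80 in the IP20D-3 arrays, against 5.68, 5.62 and 5.60 in ESC2 (difference 5.10 ± 0.31). Ddit3, the transcription factor CHOP of prolonged stress, had 9.95, 9.88 and 9.74 in the IP20D-3 arrays and 6.34, 6.27 and 6.37 in the ESC2 arrays. In all 3 genes the ESC2 arrays were near or under 6.4 and the IP20D-3 arrays near or above 9.7. For Nupr1 and Chac1 the ESC2 levels were under 6 and not shown to be above background, so the size and rank of both differences rest on such levels. Trib3, a pseudokinase that restrains ATF4, had 10.38, 10.50 and 10.34 in IP20D-3 and 7.31, 7.36 and 7.14 in ESC2, and Atf4 itself had 12.15, 12.10 and 12.06 in the IP20D-3 arrays, against 10.66, 10.68 and 10.72 in ESC2. The transcription factor Atf3 had 7.82, 7.84 and 7.91 in the IP20D-3 arrays and 5.31, 5.53 and 5.50 in the ESC2 arrays.

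Stc2, a secreted glycoprotein, differed by 3.24 ± 0.24, the AP-1 repressor Jdp2 by 3.21 ± 0.22, the lipoprotein receptor Vldlr by 3.05 ± 0.26 and the transcription factor Cebpb by 2.42 ± 0.16. Ppp1r15a, the phosphatase subunit that reverses eIF2 phosphorylation, differed by 1.38 ± 0.10, the mTOR inhibitor Ddit4 by 1.29 ± 0.14, Cebpg, a partner of ATF4, by 1.24 ± 0.12 and the hormone gene Fgf21 by 1.02 ± 0.13, the last with no array above 5.5. Sesn2 (0.92 ± 0.12), Eif4ebp1 (0.74 ± 0.08) and Atf5 (0.64 ± 0.13) were above 0 without a call. The kinases that phosphorylate eIF2 in endoplasmic reticulum stress and in amino acid shortage, Eif2ak3 (-0.46 ± 0.08) and Eif2ak4 (-0.16 ± 0.09), were not called either.

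The other iPS lines differed in how far they shared these levels. Against IP36D-3, 10 of the 19 were called higher in IP20D-3 (2.36% of all genes) and 0 lower. Against IP14D-1, 1 of the 19 was called higher (2.8% of all genes) and 0 lower. The list averaged 9.05 in IP20D-3, 7.78 in IP36D-3, 8.67 in IP14D-1, 7.20 in IP14D-101, 7.34 in R1 and 6.95 in ESC2. Ddit3 averaged 9.86 in IP20D-3, 8.05 in IP36D-3 and 9.46 in IP14D-1. Chac1 differed by -0.25 ± 0.31 between IP20D-3 and IP14D-1, without a call. The 1 gene called against IP14D-1 was Nupr1, at 1.86 ± 0.28, and Nupr1 differed from IP36D-3 by 3.28 ± 0.28.

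ATF4 acts on DNA elements that pair a CEBP half-site with an ATF half-site, and the RefSeq promoter windows of these genes were searched for 1 core form of them. The letters searched were TGATGNAA, on both strands, in the 250 bases before the first listed transcription start, on the GRCm38.p6 build. Of 27025 promoters in RefSeq's table, 3.53% held a match, and of the 14452 of genes tested here 2.43%. Among the called rises of the stress response list, 4 of 14 promoters held it, those of Atf3, Nupr1, Chac1 and Fgf21. None of the 4 promoters of its members without a call held it. In the amino acid lists described next, both called and uncalled members held it. Among synthesis genes these were 2 of 9 promoters of called rises (Pck2 and Asns) and 1 of 9 without a call (Got1). Among tRNA synthetases they were 1 of 3 (Aars) and 2 of 9 (Gars and Tars), and among transporters 0 of 4 and 2 of 5 (Slc7a11 and Slc7a7). Herpud1, the called rise of the chaperone list, also held a match. So did Idi1, a called fall of the cholesterol list described below (-2.30), 1 of the 4 promoters of called falls found there. A match is no measured site, and the windows of the other genes only lack these letters. The windows of the 5 largest called rises with a match in the stress response, synthesis and tRNA synthetase lists are shown, 5′ to 3′ on the strand of the gene, with the match in capitals. They lie at chr7:126625553-126625600 on the minus strand (Nupr1), chr2:119351029-119351076 on the plus strand (Chac1), chr14:55540143-55540190 on the plus strand (Pck2), chr1:191183416-191183463 on the minus strand (Atf3) and chr8:111033710-111033757 on the plus strand (Aars).
Nupr1: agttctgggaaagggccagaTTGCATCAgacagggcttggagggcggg
Chac1: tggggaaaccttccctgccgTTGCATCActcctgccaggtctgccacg
Pck2: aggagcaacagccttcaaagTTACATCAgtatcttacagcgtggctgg
Atf3: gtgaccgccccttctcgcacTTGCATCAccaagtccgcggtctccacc
Aars: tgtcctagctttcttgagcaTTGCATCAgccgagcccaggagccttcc
In Nupr1, Chac1, Atf3 and Aars the same 8 letters stand, read on the opposite strand, and Pck2 has another base at the free position. The 5 genes differed by 5.68, 5.10, 2.95, 2.41 and 1.85.

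Part of the genes that make, activate and import amino acids rose. Of 20 genes of serine, one-carbon and amino acid synthesis, 11 were called higher and 0 lower, with a median of 1.20. Aldh1l2, the mitochondrial 10-formyltetrahydrofolate dehydrogenase, had 7.68, 7.70 and 8.19 in IP20D-3 and 4.56, 4.49 and 4.33 in ESC2, a difference of 3.39 ± 0.23. Pck2, the mitochondrial PEP carboxykinase, had 9.81, 9.84 and 9.81 in the IP20D-3 arrays, against 6.77, 6.93 and 6.92 in ESC2. Cth, which makes cysteine, had 11.98, 11.997 and 12.23 in the IP20D-3 arrays and 9.66, 9.56 and 9.64 in the ESC2 arrays. The lines did not overlap in these genes. Aldh18a1, for proline, differed by 2.50 ± 0.13, the alanine transaminase Gpt2 by 2.39 ± 0.17, the phosphatase Psph of the serine pathway by 1.72 ± 0.09 and the branched-chain transaminase Bcat1 by 1.61 ± 0.10. The mitochondrial folate enzymes Mthfd2 (1.54 ± 0.14) and Shmt2 (1.39 ± 0.10), asparagine synthetase Asns (1.52 ± 0.08) and the first enzyme of the serine pathway, Phgdh (1.01 ± 0.08), were the others. The cytosolic folate enzymes Shmt1 (0.12 ± 0.08) and Mthfd1 (0.17 ± 0.07) and the serine pathway enzyme Psat1 (0.85 ± 0.07) were not called. Called rises numbered 9 of 20 against IP36D-3 (2.36% of all genes) and 3 of 20 against IP14D-1 (2.8%).

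**Figure D4:**
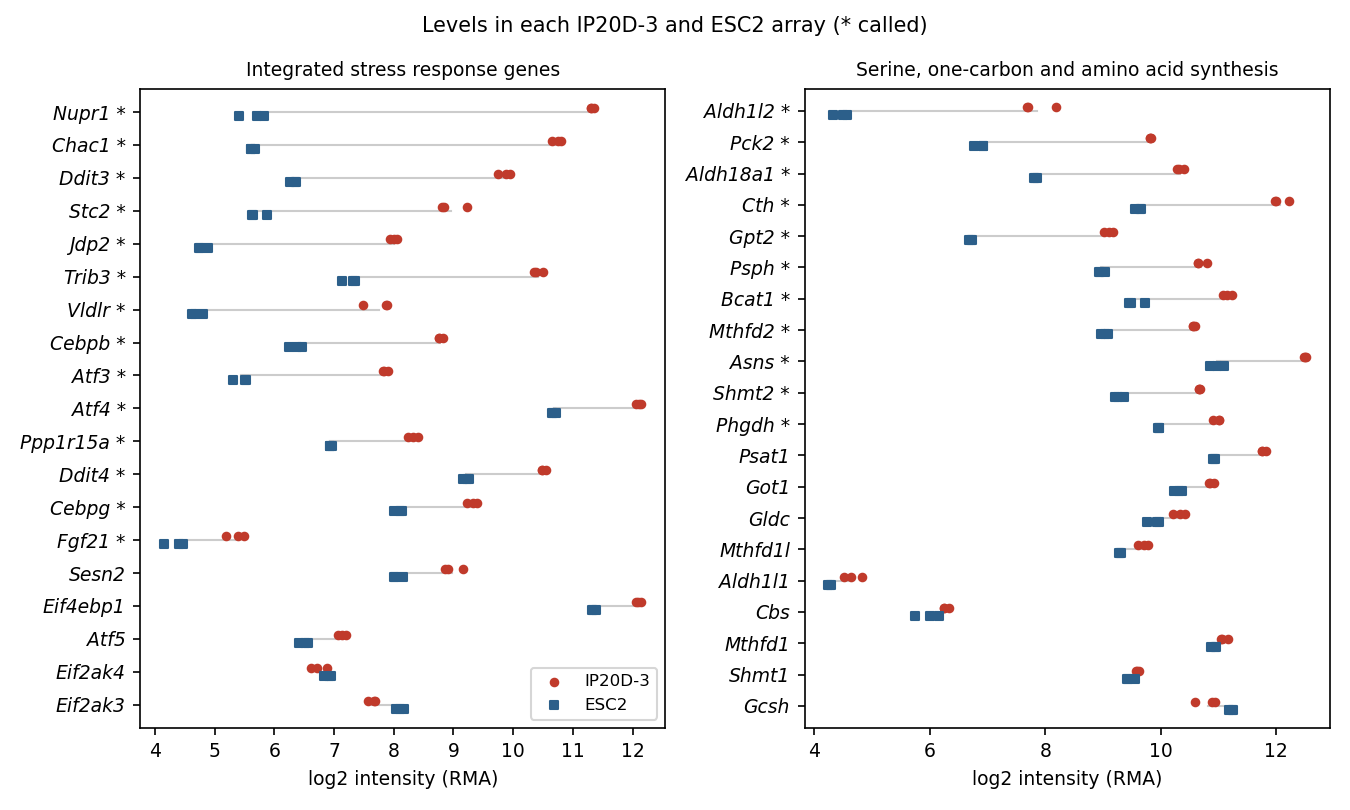
Log2 intensity in each of the 3 IP20D-3 arrays (red circles) and the 3 ESC2 arrays (blue squares) for the integrated stress response list (left, 19 genes) and the list of serine, one-carbon and amino acid synthesis (right, 20 genes), ordered by difference, with asterisks on called genes. Called genes, 14 at left and 11 at right, have every IP20D-3 array above every ESC2 array.

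Of 19 cytosolic tRNA synthetases, which charge tRNAs with amino acids, 7 were called higher and 0 lower, with a median of 0.62. Those for alanine (Aars, 1.85 ± 0.09), serine (Sars, 1.83 ± 0.10) and cysteine (Cars, 1.75 ± 0.09) had the largest rises. Aars had 12.08, 12.07 and 12.02 in IP20D-3 and 10.36, 10.13 and 10.14 in ESC2. Hars, for histidine, had the lowest difference, -0.94 ± 0.11, without a call, and passed as a fall without IP20D-3 replicate 2 (-1.06). Of 13 amino acid transporters, 6 were called higher and 0 lower. Slc7a1, the carrier of arginine and lysine, had 10.84, 10.71 and 10.76 in the IP20D-3 arrays, against 8.59, 8.47 and 8.31 in ESC2. Slc6a9, for glycine, differed by 2.19 ± 0.14 and Slc1a4, for neutral amino acids, by 2.16 ± 0.20. Slc1a5 (1.48 ± 0.12) and both chains of the leucine carrier, Slc3a2 (1.32 ± 0.10) and Slc7a5 (1.15 ± 0.10), were also called. Slc38a2 (-0.55 ± 0.07), a carrier induced by amino acid shortage, was not, and it took the other sign, at 0.15, under 1 alternative.

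Chaperones of the endoplasmic reticulum did not rise with the stress genes. Of 21 measured genes of the unfolded protein response, 4 were called lower and 1 higher, with a median of -0.54. Hspa5, the main chaperone BiP, had 10.82, 10.83 and 10.76 in the IP20D-3 arrays and 12.47, 12.34 and 12.44 in the ESC2 arrays. Manf, a secreted stress-response factor, had 9.97, 9.85 and 9.94 in IP20D-3 and 11.18, 11.23 and 11.23 in ESC2, and Xbp1, a transcription factor of the response, had 9.02, 9.16 and 8.99 in the IP20D-3 arrays, against 10.24, 10.34 and 10.28 in ESC2. All 3 were lower on each IP20D-3 array. Pdia4, a disulphide isomerase, differed by -1.03 ± 0.12 and lost its call without IP20D-3 replicate 1 (-0.89), with 16 added (-0.93) and for the mean of its probe sets (-0.45). The 1 rise was Herpud1, a degradation factor of the reticulum membrane, with 10.33, 10.27 and 10.44 in the IP20D-3 arrays and 7.67, 7.74 and 7.73 in the ESC2 arrays. Hsp90b1 (-0.91 ± 0.10), Edem1 (-0.96 ± 0.10) and Dnajb9 (0.44 ± 0.08) were not called, though Edem1 passed without IP20D-3 replicate 2 (-1.07).

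Cholesterol synthesis genes were lower more often than higher. Of 20 cholesterol genes, 7 were called lower and 1 higher, with a median of -0.80. Hmgcs1, an early enzyme of the mevalonate pathway, had 9.38, 9.58 and 9.35 in IP20D-3 and 11.46, 11.65 and 11.56 in ESC2. Idi1, the isomerase of isoprenoid units, had 8.41, 8.46 and 8.26 in the IP20D-3 arrays, against 10.61, 10.76 and 10.66 in ESC2. No array of either line overlapped in these genes. Insig1, a feedback sensor of sterols, differed by -1.61 ± 0.13, Dhcr7 by -1.48 ± 0.10, Fdps by -1.35 ± 0.13, Sqle by -1.26 ± 0.08 and Fdft1 by -1.09 ± 0.10. For the mean of the probe sets, Fdps (-0.67) and Fdft1 (-0.61) were under the threshold. The rise was Ebp, a sterol isomerase, at 1.25 ± 0.08. Srebf2, which encodes the controlling factor, differed by 0.06 ± 0.10. Called falls numbered 5 of 20 against IP36D-3 (1.89% of all genes) and 1 of 20 against IP14D-1 (2.15%). The list averaged 7.92 in IP20D-3, 8.66 in IP36D-3, 7.88 in IP14D-1 and 8.65 in ESC2. Of 11 fatty acid genes, Scd2 (-1.85 ± 0.08), Fads2 (-1.44 ± 0.12) and Fasn (-1.09 ± 0.09) were called lower.

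The letters TCACNCCA, the core of a sterol response element, occurred on either strand in 3.58% of all promoters and 3.31% of those of tested genes. Among the called falls of the cholesterol list 1 of the 4 promoters found, that of Hmgcs1, held them, as did 2 of the 11 of members without a call (Msmo1 and Srebf2). Its window, RefSeq GRCm38.p6 chr13:119690194-119690241 on the plus strand, is shown with the match in capitals, since Hmgcs1 fell most in the list after Idi1.
Hmgcs1: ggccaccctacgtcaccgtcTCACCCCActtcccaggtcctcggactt

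Of 24 genes of glycolysis and hypoxia, 6 were called lower and 1 higher. Slc2a1, the glucose transporter GLUT1, had 9.66, 9.75 and 9.30 in the IP20D-3 arrays and 11.89, 11.89 and 11.93 in the ESC2 arrays. Slc16a3, a lactate exporter, had 4.71, 4.86 and 5.21 in IP20D-3 and 6.56, 6.54 and 6.61 in ESC2, and Hk2, a hexokinase, had 9.33, 9.35 and 9.48 in the IP20D-3 arrays, against 10.71, 10.65 and 10.71 in ESC2. Each IP20D-3 array was below each ESC2 array. Egln3 (-1.92 ± 0.17) and Ankrd37 (-1.38 ± 0.14), both induced by hypoxia, and Pdk1 (-1.03 ± 0.12), which holds pyruvate from mitochondria, were the other falls, and Pdk1 was not called without IP20D-3 replicate 3 (-0.86) or ESC2 replicate 3 (-0.99) or for the mean of its probe sets (-0.44). Vegfa, the vascular growth factor and also a target of ATF4, was the rise, at 1.35 ± 0.14. The main glycolytic enzymes Pgk1 (0.04 ± 0.06), Aldoa (0.04 ± 0.08) and Pkm (-0.04 ± 0.07) were not called. Slc2a3, the glucose transporter GLUT3, differed by 0.43 ± 0.07, above 0 and without a call.

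More than 1 in 2 contractile genes and targets of SRF and YAP were lower. Of 22 measured, 12 were called lower and 0 higher, with a median of -1.31. Tagln, an actin-binding protein of smooth muscle, had 8.04, 8.05 and 7.52 in the IP20D-3 arrays and 10.21, 10.06 and 10.20 in the ESC2 arrays. Zyx, a focal adhesion protein, had 5.90, 5.84 and 5.64 in IP20D-3 and 8.06, 7.94 and 7.86 in ESC2. Ccn1, a matrix protein under YAP, had 7.79, 7.76 and 7.50 in the IP20D-3 arrays, against 9.63, 9.58 and 9.82 in ESC2. The arrays were separated by more than 1 unit in each. Myl9 (-2.17 ± 0.11), Cnn2 (-1.92 ± 0.14), Cnn1 (-1.89 ± 0.19), Ccn2 (-1.85 ± 0.08), Vcl (-1.76 ± 0.08), Ankrd1 (-1.59 ± 0.11), Vim (-1.49 ± 0.08) and Tpm1 (-1.14 ± 0.08) were also called. Acta2, smooth muscle actin, differed by -2.73 ± 0.10 on its brightest probe set, but its 2 other probe sets did not share the direction, and the mean of all 3 gave -0.87 and no call. Against IP36D-3, 7 of 22 were called lower (1.89% of all genes), and against IP14D-1, 16 of 22 (2.15%).

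Of 30 fibroblast and feeder markers, 7 were called lower and 1 higher, with a median of -0.39, and 22 were not called. Thbs1, a matrix protein, had 4.34, 4.50 and 3.94 in the IP20D-3 arrays and 7.64, 7.54 and 7.74 in the ESC2 arrays. Lox, which crosslinks collagen, had 3.93, 4.07 and 3.81 in IP20D-3 and 7.22, 6.86 and 6.35 in ESC2. Col1a2, a fibrillar collagen chain, had 4.46, 4.33 and 4.26 in the IP20D-3 arrays, against 6.34, 6.44 and 6.76 in ESC2. The IP20D-3 arrays were under 5 in all 3, and the ESC2 arrays above 6. Col5a2 (-2.51 ± 0.23), Cdh11 (-2.31 ± 0.15), Bgn (-1.90 ± 0.13) and Fbln2 (-1.03 ± 0.10) were called too, but the abundant collagens Col1a1 (-0.52 ± 0.14) and Col3a1 (-0.80 ± 0.19) were under 6 in both lines and not called, and Thy1, Pdgfrb and Lum differed by 0.11, 0.19 and -0.10. Summed on the linear scale, the list reached 4988, 4682 and 5004 in IP20D-3 and 4466, 4049 and 4255 in ESC2. The brightest members weigh most in such a sum, and Fn1, given next, makes up a large part of it. The mean log2 level of the list went the other way, at 4.84 in IP20D-3 and 5.52 in ESC2. Fibronectin (Fn1), with 11.25, 11.15 and 11.28 in the IP20D-3 arrays and 10.37, 10.14 and 10.18 in the ESC2 arrays, differed by 0.995 ± 0.08, just short of a call, and passed without IP20D-3 replicate 2 (1.03) or ESC2 replicate 1 (1.07), which made 2 rises in the list. How much of the difference in contractile genes goes with feeder cells in the cultures was not tested. Loxl1 (1.23 ± 0.10) was the 1 rise, and was not called with 16 added (0.88) or for the mean of its probe sets (0.52). Fbln2 lost its call without IP20D-3 replicate 3 (-0.99) or ESC2 replicate 3 (-0.93), with 16 added (-0.65) and for the mean of its probe sets (-0.45).

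SRF binds an element called the CArG box, which 1.4% of all promoter windows and 1.21% of those of tested genes held. Of the 10 promoters found for called falls in the contractile list, 3 held it, those of Cnn2, Myl9 and Vcl, as did 2 of the 9 of members without a call (Srf and Fhl2). The called ones lie at chr10:79988524-79988573, chr2:156775283-156775332 and chr14:20929151-20929200, all on the plus strand of RefSeq GRCm38.p6. They are shown because these 3 genes fell together, with the box in capitals.
Cnn2: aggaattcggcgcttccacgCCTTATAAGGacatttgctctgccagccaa
Myl9: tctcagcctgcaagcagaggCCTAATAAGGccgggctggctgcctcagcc
Vcl: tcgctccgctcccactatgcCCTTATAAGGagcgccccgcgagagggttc
Cnn2 and Vcl hold the same 10 letters.

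Lists of other lineages showed no common rise. Of 21 trophectoderm genes, 6 were called lower and 2 higher. Krt8, a keratin of simple epithelia, had 8.21, 8.13 and 7.52 in IP20D-3 and 9.64, 9.89 and 9.74 in ESC2, and Cdx2, the trophectoderm factor, had 4.35, 4.37 and 4.27 in the IP20D-3 arrays, against 5.95, 5.64 and 5.88 in ESC2. Both were called lower, with Cdx2 under 6 on every array. The other falls were Krt18 (-1.01 ± 0.16), Eomes (-1.08 ± 0.20) and both Rhox genes given above, and the rises were the lectin Lgals3 (1.30 ± 0.11) and the claudin Cldn4 (1.62 ± 0.21). Krt18 lost its call without IP20D-3 replicate 3 (-0.76) or ESC2 replicate 2 (-0.90), and Eomes without ESC2 replicate 2 (-0.98), and with 16 added they stood at -0.98 and -0.92. Of 22 endoderm genes, 3 were called in each direction. Apoe, an apolipoprotein, had 12.60, 12.69 and 12.64 in the IP20D-3 arrays and 10.87, 10.84 and 10.80 in the ESC2 arrays, and Lama1, a laminin chain, had 8.11, 8.02 and 8.06 in IP20D-3 and 6.40, 6.33 and 6.22 in ESC2. Sox7 (1.45 ± 0.18) was the other rise, and Lrp2 (-1.68 ± 0.10), Pth1r (-1.31 ± 0.18) and Col4a1 (-1.23 ± 0.08) were the falls. Sox7 (0.95) and Pth1r (-0.71) were not called with 16 added, nor Sox7 (0.90) and Col4a1 (-0.75) for the mean of the probe sets. Gata4 (0.33 ± 0.12), Gata6 (-0.09 ± 0.18) and Sox17 (-0.12 ± 0.15), the factors that define primitive endoderm, were not called.

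Of 14 primitive streak and mesoderm genes, 5 were called lower and 0 higher: Evx1 (-1.29 ± 0.16), Fgf8 (-1.25 ± 0.16), Wnt3, Eomes and Cdx4 (-1.07 ± 0.08). All but Eomes stayed under 6 on every array, and with 16 added to each intensity 0 were called. Of 14 neuroectoderm genes 0 were called, with differences from -0.90 for Zic1 and -0.90 for Pax6 to 0.92 for Tubb3. Of 20 Hox genes, which pattern the body axis, Hoxb1 (-1.82 ± 0.19) was called lower, under 6 in both lines and at -0.97 with 16 added. This is 1 of 20, near the 3.38% of all genes called lower.

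Smaller groups contained single large differences. Of all genes, 5.22% were called higher and 3.38% lower, so 1 or 2 calls in a small group are no result about it. Irgm1, an interferon-induced GTPase, had 4.89, 4.55 and 5.13 in the IP20D-3 arrays, against 8.01, 8.21 and 8.34 in ESC2, and Gbp2, another, had 3.80, 4.12 and 3.88 in the IP20D-3 arrays and 6.52, 7.09 and 6.94 in the ESC2 arrays. With the factor Irf1 (-1.21 ± 0.10) they made 3 falls among 21 interferon and MHC class I genes, beside rises of Ifitm2 (1.24 ± 0.07) and Stat2 (1.38 ± 0.16). Stat2 lost its call with 16 added (0.93) and for the mean of its probe sets (0.94). Of 12 heat shock genes, Hspa1b (-2.97 ± 0.18), Cryab (-2.74 ± 0.18), Hsph1 (-1.24 ± 0.09) and Hspa1a (-1.13 ± 0.16) were called lower and Hspb8 (1.75 ± 0.09) higher. Hspa1b, an inducible HSP70, had 5.81, 5.79 and 5.82 in IP20D-3 and 8.54, 8.91 and 8.88 in ESC2, and Hspa1a stood at -0.82 with 16 added. Slc40a1, the iron exporter ferroportin, had 5.23, 5.41 and 4.73 in the IP20D-3 arrays, against 8.69, 8.96 and 8.78 in ESC2. It was 1 of 2 falls among 9 iron genes, with Aco1 (-1.24 ± 0.12), which was not called for the mean of its probe sets (-0.45).

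Among 15 cell cycle genes, Ccnd2 (-1.58 ± 0.13), Ccne2 (-1.34 ± 0.15) and Ccnd1 were called lower, and the cyclin-dependent kinase inhibitor Cdkn1b higher, with 7.70, 7.91 and 7.99 in the IP20D-3 arrays and 5.98, 6.13 and 6.08 in the ESC2 arrays. Cdkn1b was thus higher on every IP20D-3 array. Of 19 p53 targets and inhibitors, Cdkn2b (-2.19 ± 0.15), Plk2 (-1.25 ± 0.13) and Cdkn1a (-1.21 ± 0.09) were called lower, and Cdkn1a, the inhibitor p21, had 7.34, 7.34 and 7.61 in IP20D-3 and 8.69, 8.62 and 8.60 in ESC2. Plk2 stood at -0.63 for the mean of its probe sets. In the Myc family of 10 genes, Myc was called lower and Mga, a repressor of its targets, higher (1.10 ± 0.19). Mga was not called without IP20D-3 replicate 3 (0.95) or for the mean of its probe sets (0.72). Of 10 Myc targets of ribosome and nucleotide synthesis, Ddx21 (-1.34 ± 0.09) and Polr1b (-1.11 ± 0.10) were called lower. Immediate-early genes gave 2 falls of 16, Ier3 and Jun (-1.004 ± 0.09), and 1 rise, Atf3, and Jun lost its call without IP20D-3 replicate 1 (-0.95) or 2 (-0.995) or ESC2 replicate 1 (-0.96) or 3 (-0.98), with 16 added (-0.82) or for the mean of its probe sets (-0.89). Of 10 NRF2 targets, Gclm (-1.50 ± 0.10), a subunit of the enzyme that starts glutathione synthesis, was called lower. Of 15 adhesion genes, Cldn4 was called higher, Cdh2 and Vim lower.

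Several of the largest differences belonged to none of these groups. The genes given here had a mean of at least 6 in the higher line and arrays that did not overlap, and clone names were left out. Atp12a, a proton and potassium pump of non-gastric tissue, had 7.90, 8.06 and 8.19 in the IP20D-3 arrays, against 3.86, 4.20 and 3.91 in ESC2. Zmat4, a zinc finger gene, had 8.32, 8.31 and 8.80 in the IP20D-3 arrays and 4.38, 4.50 and 4.47 in the ESC2 arrays, and 1 of its 2 other probe sets, both low, shared the direction. Catsperz, an auxiliary subunit of the sperm calcium channel, had 7.51, 7.70 and 7.62 in IP20D-3 and 4.10, 3.98 and 4.26 in ESC2. These genes were near or under 4.5 in ESC2. Patl2, a translational repressor of oocytes, had 8.22, 8.60 and 8.49 in the IP20D-3 arrays, against 5.24, 5.08 and 4.66 in ESC2, and Cobl, an actin nucleator, had 10.60, 10.32 and 10.59 in the IP20D-3 arrays and 7.40, 7.08 and 7.29 in the ESC2 arrays, above 7 in both lines.

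Among the falls, Fgfbp1, which carries FGFs out of the matrix, had 4.34, 4.28 and 4.73 in IP20D-3 and 9.34, 9.18 and 9.33 in ESC2, a difference of -4.83 ± 0.11. Prss23, a secreted serine protease, had 3.14, 3.72 and 3.48 in the IP20D-3 arrays, against 7.58, 7.68 and 8.07 in ESC2. Has2, a hyaluronan synthase, had 4.87, 5.08 and 5.24 in the IP20D-3 arrays and 8.35, 8.27 and 8.47 in the ESC2 arrays. In these genes IP20D-3 arrays were at or under 5.3, where a level was not shown to exceed background. Rbm45, an RNA-binding protein, had 6.05, 5.77 and 6.36 in IP20D-3 and 9.50, 9.73 and 9.56 in ESC2, and Trib2, a pseudokinase related to Trib3, had 5.18, 4.81 and 4.63 in the IP20D-3 arrays, against 8.50, 8.24 and 8.37 in ESC2, with 1 of its 2 other probe sets, both low, in the same direction. Cap1, a regulator of actin turnover that cells express widely, had 4.87, 5.81 and 6.01 in the IP20D-3 arrays and 9.18, 9.23 and 9.16 in the ESC2 arrays, and its other probe set was also lower.

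Cap1 lay lower in IP20D-3 than in every other line. It averaged 5.56 in IP20D-3, 9.30 in IP36D-3, 8.98 in IP14D-1, 8.77 in IP14D-101, 10.07 in R1 and 9.19 in ESC2. It was called lower in IP20D-3 in the contrasts with IP36D-3 (-3.73 ± 0.18) and with IP14D-1 (-3.42 ± 0.18), as it was against ESC2. The IP20D-3 arrays spread over more than 1 unit, from 4.87 to 6.01. The difference in Fgfbp1 was -3.43 ± 0.11 relative to IP36D-3 and -3.40 ± 0.11 relative to IP14D-1. Atp12a was higher by 4.13 ± 0.26 and 2.78 ± 0.26 in the same contrasts.

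By the same rule, the other genes with the largest rises in IP20D-3 against IP36D-3 were Aldh1l2 (3.46 ± 0.23), Nupr1, Pof1b (3.03 ± 0.14), an actin-binding protein, Ephx2 (2.998 ± 0.12), soluble epoxide hydrolase, and Hhip (2.99 ± 0.16), which sequesters hedgehog ligands. The largest falls besides Fgfbp1 and Cap1 were Trh (-3.30 ± 0.13), a neuropeptide gene, Apela (-3.18 ± 0.08), a ligand of the apelin receptor, Has2 (-2.92 ± 0.14) and Trib2 (-2.73 ± 0.14). Apela had 7.17, 7.17 and 7.37 in IP20D-3 and 10.28, 10.37 and 10.49 in ESC2, and was higher in every other line, with a lowest line mean of 9.66 in IP14D-1. Against IP14D-1, the largest rises besides Atp12a were Catsperz (3.12 ± 0.14), Zmat4 (3.04 ± 0.17), Serpinb6c (2.84 ± 0.11), a protease inhibitor, Mia (2.58 ± 0.12), a secreted protein, and Patl2 (2.40 ± 0.14). The largest falls were Meg3 and Rian (-4.02 ± 0.18), Acta2 (-3.89 ± 0.10), Prss23 (-3.81 ± 0.20), Thbs1 (-3.45 ± 0.13) and Cap1.

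By chromosome, the median difference was furthest from 0 on chromosome 8. Over its 516 genes with a mean of at least 6 in either line, the median difference of IP20D-3 minus ESC2 was 0.28, and the medians of the other autosomes and X ran from -0.07 to 0.15. Of all 932 chromosome 8 genes, 70 were called higher (7.51%, against 5.22% of all genes) and 19 lower (2.04%, against 3.38%). The same 516 genes had a median difference of -0.29 relative to IP36D-3 and 0.28 relative to IP14D-1, where the other autosomes and X ran from -0.05 to 0.22. Each array's median deviation from the 18-array mean, less that of all autosomal genes, was 0.06 to 0.08 in IP20D-3, 0.31 to 0.32 in IP36D-3, -0.14 to -0.12 in IP14D-1 and -0.15 to -0.13 in ESC2. The arrays of IP20D-3 therefore lay above all arrays of ESC2 and IP14D-1 and below all of IP36D-3, with R1 at -0.01 to 0.02 and IP14D-101 at -0.10 to -0.05. On chromosome 6 the IP20D-3 arrays, at -0.12 to -0.09, lay below every array of the other lines, with 0.01 to 0.02 in ESC2. Its median difference over 418 such genes was -0.04 relative to ESC2, -0.21 relative to IP36D-3 and -0.05 relative to IP14D-1, and 5.34% of its 992 genes were called lower than in ESC2. The cause of these shifts was not tested. Klf2, Zmat4, Hhip, Apela and Herpud1 lie on chromosome 8, and among them Apela was lower. Without chromosome 8, 1475 genes were called, an alternative chosen after seeing the data, and the counts of the lists above changed by more than 1.5 times only for the rise of Herpud1, which was left out with it.

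**Figure D5:**
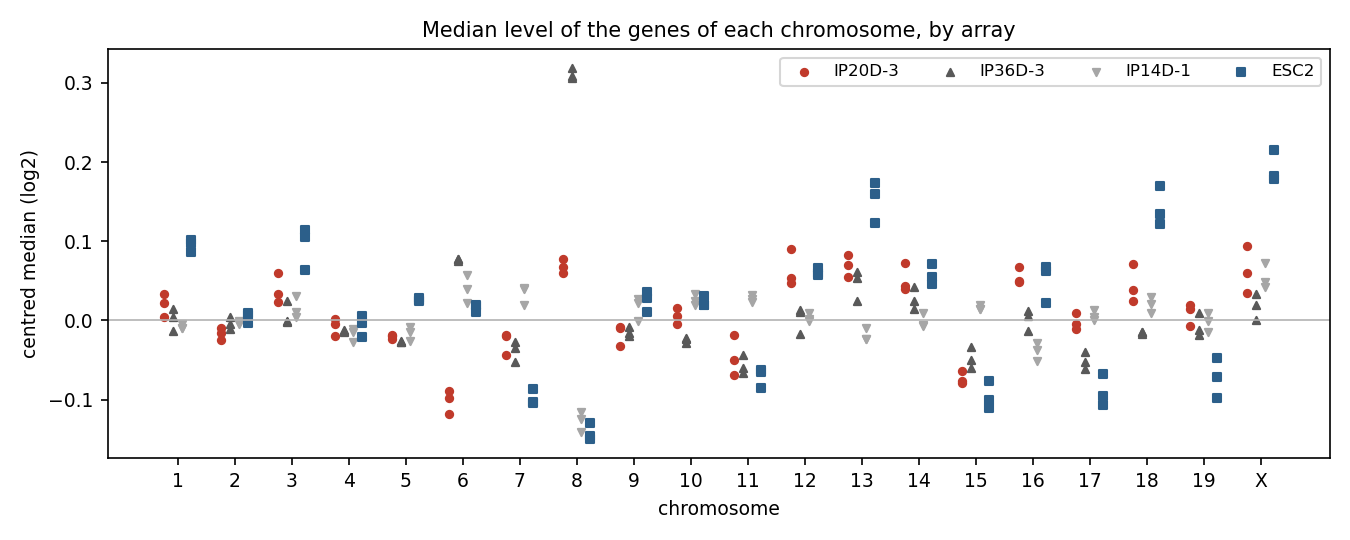
Median deviation of the genes of each chromosome from their mean over 18 arrays, less that of all autosomal genes, in log2, with 1 point per array for IP20D-3, IP36D-3, IP14D-1 and ESC2 (genes with a mean of at least 6 in IP20D-3 or ESC2). On chromosome 8 the IP20D-3 arrays lie at 0.06 to 0.08, between IP36D-3 at 0.31 to 0.32 and ESC2 at -0.15 to -0.13.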

How the data were processed

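Each of the 18 arrays, 3 from each of 6 cell lines, measured RNA from cultured mouse pluripotent cells. Per the series' design text, the authors processed the arrays with RMA, and the deposited values are linear intensities, 1 per probe set (RMA version: not given in the sources used here). Log2 was taken of these deposited intensities with nothing added. Of 45101 probe sets, 34945 had 1 gene symbol; for a gene with several, the probe set with the highest mean over all arrays was used, which left 18193 genes. limma 3.58.1 in R 4.3.3 fitted 1 mean per line over all 18 arrays, and Benjamini-Hochberg adjustment ran over all genes in each contrast. Tables and plots used Python 3.11.15, pandas 2.3.3, numpy 2.4.6 and matplotlib 3.10.9. On simulated data, 100% of 200 genes changed by 1.5 in log2 were recovered with 0 false calls in each of the 3 contrasts.

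The cell lines, gene lists and tests were chosen with earlier results of these data known. Genes are named as members of 39 lists (up to 8 called members by size, and others to account for a list) or as the 12 largest called rises and 12 largest falls against ESC2 and the 6 of each against each iPS line, with a mean of at least 6 in the higher line, no overlap of arrays and no clone name. Meg3, Rian, Mirg, Dlk1, Pou5f1, Nanog, Sox2, Klf4, Myc and Xist are always named. Alternatives changed the added constant, the probe set rule, filters, weights, normalization, the arrays fitted and each replicate in turn. Arrays carry no read depth; their number limits the precision. Promoter windows came from RefSeq GRCm38.p6; those of the amino acid, tRNA synthetase and contractile lists were added after their values were seen.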

Additional observations from a re-analysis of the deposited data

Results flagged for a closer look

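Probe sets without a gene symbol, which the comparison of genes does not use, also differed between the lines. Of 9160, 173 were called higher in IP20D-3 than in ESC2 (1.89%) and 273 lower (2.98%), beside 4.86% and 3.5% of the 34945 probe sets with 1 symbol.

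The genes below were picked as those with the largest differences between IP20D-3 and an iPS line of the same strain label. They were picked among genes that limma called in that same contrast. That they differ there is therefore fixed by the choice and is no further evidence. The contrasts share the IP20D-3 arrays. Relative to IP36D-3, IP20D-3 was higher in Atp12a (4.13), Aldh1l2 (3.46), Nupr1 (3.28), Pof1b (3.03), Ephx2 (2.998) and Hhip (2.99), given as log2 differences. It was lower than IP36D-3 in Cap1 (-3.73), Fgfbp1 (-3.43), Trh (-3.30), Apela (-3.18), Has2 (-2.93) and Trib2 (-2.73). Relative to IP14D-1, IP20D-3 was higher in Catsperz (3.12), Zmat4 (3.04), Serpinb6c (2.84), Atp12a (2.78), Mia (2.58) and Patl2 (2.40). It was lower than IP14D-1 in Meg3 (-5.67), Rian (-4.03), Acta2 (-3.89), Prss23 (-3.81), Thbs1 (-3.45) and Cap1 (-3.42). The value for Acta2 is that of its brightest probe set, and against ESC2 the direction was not shared by its other probe sets.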

How the results depend on the processing

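Against ESC2, 1564 genes were called, and between 1098 (16 added to each intensity) and 1627 under the alternatives that kept 1 value per gene. Testing every probe set gave 2922 calls against ESC2, 1352 against IP36D-3 and 1757 against IP14D-1, because more features were tested. With 16 added, 479 genes were called against IP36D-3 and 588 against IP14D-1; the cause was not tested. Leaving out 1 array at a time gave 1536 to 1627 calls against ESC2, 737 to 818 against IP36D-3 and 880 to 984 against IP14D-1. Renewed quantile normalization turned the split against IP14D-1 to 417 higher and 476 lower, beside 510 and 392. Same-numbered arrays of IP20D-3 and ESC2 correlated at 0.205, 0.112 and -0.0987 in their deviations from the line means, so the numbers were not taken to pair them. With the replicate number as a block the counts of calls were again 1564, 772 and 902. Each line holds each replicate number once, so a block leaves the differences between lines unchanged. The equal counts were thus nearly fixed in advance and say nothing about pairing. Leaving out chromosome 8 (1475) and keeping genes with a mean of at least 6 in either line (1298) were chosen after seeing the data. None of 191 genes, those called and named by rule or always named, reversed its direction. Most of them were picked for a called difference of at least 1, so this was largely set by the choice. Of 418 list members without a call, 77 took the other sign under at least 1 alternative, and 0 of these were called under any. Their differences in the main fit were up to 0.714 in size, and under an alternative they went further, such as -0.934 for Lin28a. Under at least 1 alternative 18 of the 418 were called.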
